A study of Rattus norvegicus with 13 samples.

Results

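The 10 genes described here encode proteins of the fast contractile apparatus of skeletal muscle and the muscle form of creatine kinase, and they were examined as markers of skeletal muscle in rat mammary samples. The members are Acta1, Actn3, Ckm, Myh1, Myh2, Myh4, Tnnt3, Tnni2, Tnnc2 and Mylpf, and they were found through the RefSeq accession beside each array probe, Mylpf under its current RefSeq symbol Myl11. All 10 had a probe, and all 10 passed the filter on dim probes, among 25344 genes that did so. The samples were 3 normal mammary tissues of non-irradiated rats (normal), 4 mammary carcinomas of rats irradiated at 3 weeks of age, before puberty (IR-3W), and 6 mammary carcinomas of rats irradiated at 7 weeks of age, after it (IR-7W). All were females of Sprague-Dawley, an outbred rat stock, and tissue had been kept frozen. Irradiation was a single whole-body exposure to 137Cs gamma rays of 2 Gy at 0.6 Gy per minute. Animals were fed AIN-76A diet with 23.5% corn oil from 9 weeks of age on, and palpable tumours were taken at 50 weeks. Whether the normal animals had that diet is not stated, and their age is given in one place as 7 weeks and in another as matched to the tumours. The labels do not say how the tissue was dissected from the muscle beneath the gland, nor whether each array stands for a separate animal. The p-values thus reflect the scatter among these arrays, part of which could be technical.

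Skeletal muscle fibres contract when calcium binds troponin C on the thin actin filament, which draws troponin I off actin so that tropomyosin shifts and uncovers the sites that myosin heads pull on, while troponin T anchors the complex to tropomyosin. Fast and slow fibres use different genes for myosin heavy chain, troponin and myosin light chain, and in rat limb muscle Myh4, Myh1 and Myh2 mark the fast fibre types IIB, IIX and IIA. The mammary gland of the rat lies between the skin and the muscles of the body wall. Mammary epithelium and its contractile myoepithelium use smooth muscle and cytoplasmic forms of these proteins, so the fast sarcomeric genes are textbook markers of skeletal muscle.

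The myosin heavy chain genes Myh2, Myh1 and Myh4 lie in a cluster, and their upstream sequences are shown with a stretch that they share. Other members were not compared in this way. Sequences are those of RefSeq, build GRCr8, from 250 bases before to 50 bases after the annotated start. The windows are chr10:52384662-52384961 for Myh1, chr10:52355489-52355788 for Myh2 and chr10:52421898-52422197 for Myh4, all on the plus strand. Capitals mark the longest stretch common to the 3 windows, 20 bases long, which begins at position -166 from the start in Myh1, -170 in Myh2 and -177 in Myh4.
Myh1: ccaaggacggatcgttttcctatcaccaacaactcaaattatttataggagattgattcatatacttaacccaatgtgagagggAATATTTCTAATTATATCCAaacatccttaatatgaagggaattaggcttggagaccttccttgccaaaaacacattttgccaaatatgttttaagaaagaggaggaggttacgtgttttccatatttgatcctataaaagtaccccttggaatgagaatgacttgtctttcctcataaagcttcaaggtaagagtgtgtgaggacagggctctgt
Myh2: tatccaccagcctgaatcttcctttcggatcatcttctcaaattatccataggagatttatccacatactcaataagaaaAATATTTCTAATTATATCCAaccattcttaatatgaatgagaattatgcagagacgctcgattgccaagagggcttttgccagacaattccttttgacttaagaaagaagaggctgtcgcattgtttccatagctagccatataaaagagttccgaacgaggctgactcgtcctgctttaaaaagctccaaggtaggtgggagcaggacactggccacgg
Myh4: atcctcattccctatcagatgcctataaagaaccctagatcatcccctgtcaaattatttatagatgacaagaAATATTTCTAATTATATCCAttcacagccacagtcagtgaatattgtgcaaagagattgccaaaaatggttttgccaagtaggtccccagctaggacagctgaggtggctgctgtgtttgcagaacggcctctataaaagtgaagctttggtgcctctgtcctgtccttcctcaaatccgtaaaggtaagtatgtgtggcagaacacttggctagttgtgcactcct
Over the 33469 windows of the same kind in the table, 5 held this stretch, and the other 2 were assigned to one uncharacterised locus.

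The windows of Acta1, the skeletal actin gene (chr19:68784145-68784444, minus strand), and Ckm (chr1:88189211-88189510, plus strand) are shown with the motifs searched for. Capitals mark CAGCTG (an E-box of the kind bound by myogenic basic helix-loop-helix factors), TATAAA, and the CArG box bound by serum response factor, each searched on both strands.
Acta1: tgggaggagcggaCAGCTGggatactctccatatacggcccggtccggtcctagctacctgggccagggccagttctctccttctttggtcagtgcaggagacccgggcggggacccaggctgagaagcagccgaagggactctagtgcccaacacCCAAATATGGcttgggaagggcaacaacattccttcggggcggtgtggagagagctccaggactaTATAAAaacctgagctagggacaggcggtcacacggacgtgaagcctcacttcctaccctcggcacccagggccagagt
Ckm: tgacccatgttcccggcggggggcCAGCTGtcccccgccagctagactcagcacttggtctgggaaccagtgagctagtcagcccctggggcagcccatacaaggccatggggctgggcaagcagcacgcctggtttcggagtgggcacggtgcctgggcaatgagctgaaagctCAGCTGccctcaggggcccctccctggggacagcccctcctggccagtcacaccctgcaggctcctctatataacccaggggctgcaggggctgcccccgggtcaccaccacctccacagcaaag
Of the 9 members with a window, Acta1, Ckm, Myh4 and Mylpf held the first motif, 4 in all, against 15.1% of all windows. The letters TATAAA were in 5 members (Acta1, Myh1, Myh2, Myh4 and Tnni2), against 14.2% of all windows. They were counted anywhere in the window, so this is not a count of TATA boxes. Other spellings, such as tatataa in the Ckm window, were not counted. The CArG box was in 2 (Acta1 and Myh4), against 1.64% of all windows, and the MEF2 site in 2 (Myh1 and Myh4), against 3.29%. These matches describe the letters of the windows and do not show that a factor binds there.

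Levels are given as the log2 of the processed signal minus the array's 75th percentile, so 0 is the 75th percentile of that array and a step of 1 is a factor of 2. Levels are compared between arrays for the same probe and not between probes. The 75th percentile lay at 82.3 to 179 signal units on the normal arrays and at 276 to 1242 on the carcinoma arrays. The dimmest signal called well above background lay at a level of -3.15 to -3.98 on the normal arrays and of -4.17 to -6.10 on the carcinoma arrays, so a dim gene could be followed further down in the carcinomas. A level that was not well above background is only a bound, and it is lower on brighter arrays. The normal arrays shared a slide and a scanner that held no carcinoma, so slide and scanner cannot be told apart from the difference between normal tissue and carcinoma. Of 11 listed markers of mammary epithelium, the 10 with a probe (among them Cdh1, Krt8 and Krt18) were well above background on all 13 arrays.

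The muscle genes were high together on 3 carcinoma arrays, IR-3W 1, IR-7W 1 and IR-7W 6, and the average of the members was lower on each of the other 7. All 10 members were well above background on IR-3W 1 and IR-7W 6 and 9 of them on IR-7W 1, against 6 to 8 on every other array. Averaged over the 10 genes, the level was 0.31 on IR-3W 1, -0.63 on IR-7W 1 and 0.73 on IR-7W 6. The other 7 carcinoma arrays lay between -4.74 and -2.81, and the normal arrays lay at -1.28, -2.56 and -3.10. With each undetected value raised to its array's detection limit, the other 7 carcinomas lay between -4.32 and -2.02 and the normal arrays at -1.05, -2.08 and -2.42. The 3 high arrays, at -0.63 and above, thus stood over the remaining carcinomas on either average, and they came from both irradiation groups. Whole tissue was measured, and which cells gave the signal of these genes was not tested. Even for signal from muscle, a smaller amount of muscle and less RNA per muscle fibre cannot be told apart.

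**Figure D1:**
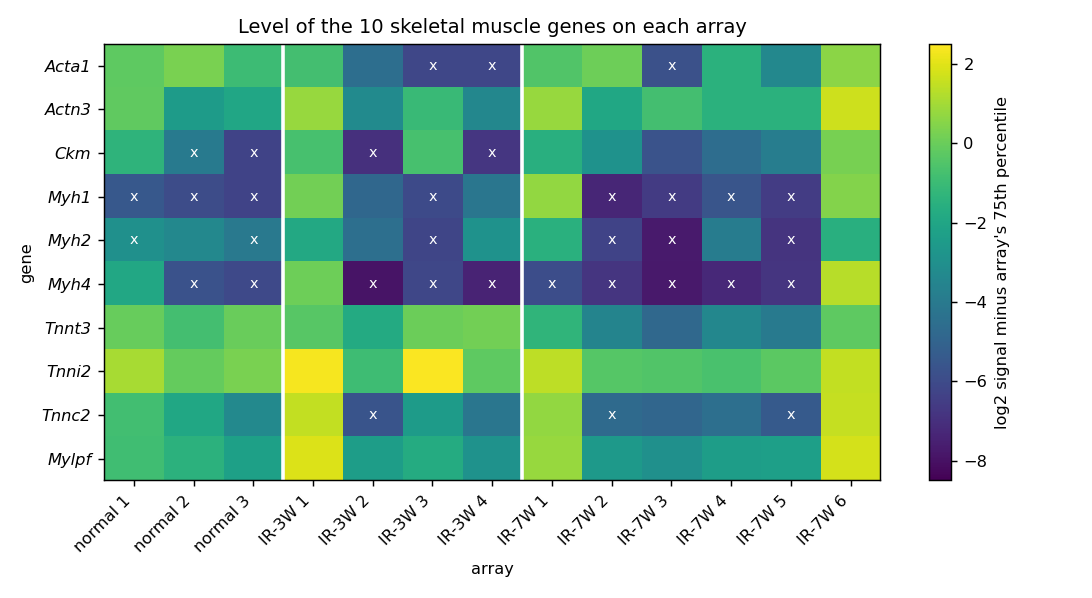
Level of the 10 members (rows) on each of the 13 arrays (columns), as a log2 level relative to the array's 75th percentile; a cross marks a value not well above background and white lines part the normal, IR-3W and IR-7W arrays. The columns of IR-3W 1, IR-7W 1 and IR-7W 6 hold few crosses, with Myh4 on IR-7W 1 the only one among them.

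Among the motor proteins, Myh1 (the IIX myosin heavy chain) was undetected in normal tissue, that is, never well above background, at -5.45, -5.95 and -6.27. In IR-3W it stood at 0.17 on array 1, -4.84 on array 2, -6.01 on array 3 and -4.2 on array 4, of which only array 3 was not well above background. In IR-7W it ran from -7.31 over a median of -6.06 to 0.71, with 0.71 on array 1 and 0.48 on array 6 the only values well above background. With undetected values raised to the detection limit of their array, the lowest of the 3 high arrays (IR-3W 1) stood 3.32 units above the highest other array (normal 1, at its limit of -3.15).

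Myh4, the IIB myosin heavy chain of the fastest fibres, was well above background on 3 of the 13 arrays. Its level was -1.91 on normal 1, 0.09 on IR-3W 1 and 1.31 on IR-7W 6. The other normal arrays lay at -5.75 and -6.06, the other IR-3W arrays at -7.93, -6.18 and -7.40, and the other IR-7W arrays from -7.76 to -5.91, where -5.91 belonged to IR-7W 1. Myh4 thus parted IR-7W 1 from the other arrays on which muscle genes were high.

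Myh2, the IIA myosin heavy chain, was at -2.96, -3.38 and -4.06 on the normal arrays, with only the second well above background. It was at -1.87, -4.50, -6.22 and -2.91 on the IR-3W arrays, the third not well above background. The IR-7W levels ran from -7.70 over a median of -5.08 to -1.52, and arrays 1 and 6 were alike at -1.52 and -1.55. The order of the carcinoma arrays was the same at the top as for Myh1, although IR-3W 4 and IR-7W 4 carried intermediate signal.

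Mylpf, the regulatory light chain that binds fast myosin, was well above background on all 13 arrays. It stood at -0.89, -1.42 and -2.27 on the normal arrays and at 1.92, -2.36, -1.74 and -2.91 on the IR-3W arrays. Across IR-7W it went from -3.0 over a median of -2.34 to 1.79, with 0.81 on array 1. IR-3W 1, IR-7W 6 and IR-7W 1 were the highest 3 of all 13 arrays for this gene.

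**Figure D2:**
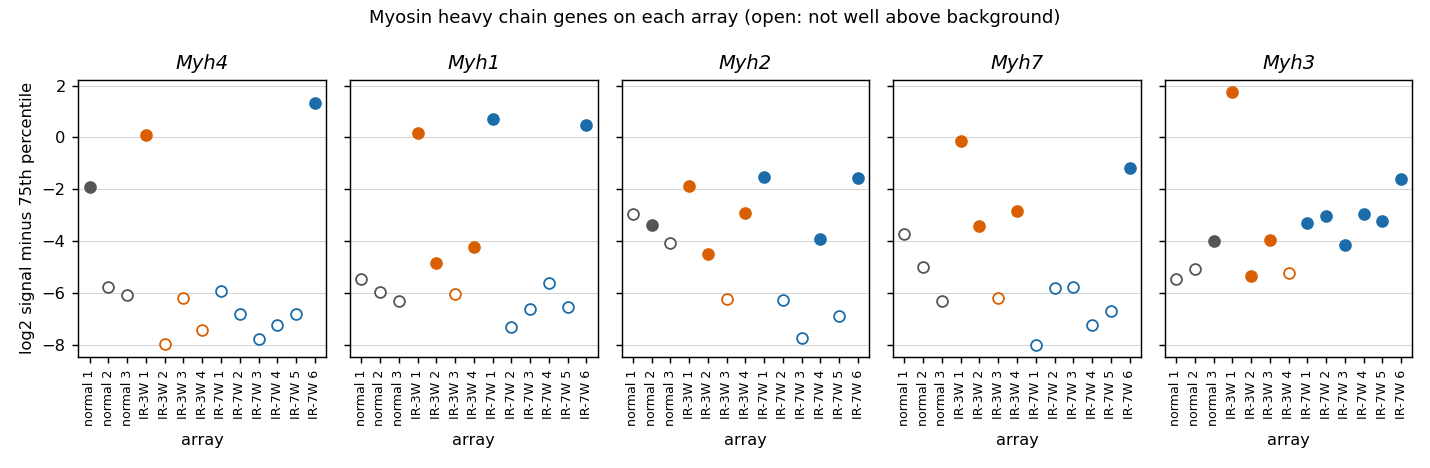
Level of 5 myosin heavy chain genes on each of the 13 arrays, as a log2 level relative to the array's 75th percentile; grey is normal, orange IR-3W and blue IR-7W, and open circles are values not well above background. Myh1 is high on IR-3W 1, IR-7W 1 and IR-7W 6, whereas Myh4 and the slow Myh7 are high on IR-3W 1 and IR-7W 6 and not well above background on IR-7W 1.

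On the thin filament, Acta1, the skeletal alpha-actin, was high in normal tissue, at -0.21, 0.29 and -0.98. It was at -0.80 and -4.54 on IR-3W 1 and 2 and not well above background on IR-3W 3 and 4, both at -6.17. Its IR-7W range went from -5.78, not well above background on array 3, over a median of -0.99 to 0.60 on array 6. Acta1 followed the other members least: IR-7W 2, at 0.08, was above IR-7W 1, at -0.50, and the normal arrays lay among the higher ones.

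Actn3, the alpha-actinin of fast Z-discs, was well above background on all 13 arrays. Its normal levels were -0.20, -2.47 and -2.00, and its IR-3W levels were 0.78, -3.25, -1.04 and -3.42. Over the IR-7W arrays the level went from -1.96 over a median of -1.12 to 1.67, and IR-7W 1 stood at 0.79. The same 3 carcinoma arrays were the only ones above 0 for this gene.

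The fast troponins differed from each other in the IR-3W arrays. Tnnc2, the calcium-binding troponin C of fast muscle, was at -0.82, -1.96 and -3.31 in normal tissue and at 1.49, -5.64, -2.45 and -4.19 in IR-3W, with -5.64 not well above background. IR-7W arrays ran from -5.39 over a median of -4.60 to 1.53, with 0.74 on array 1 and not well above background on arrays 2 and 5. As with Mylpf, IR-3W 1, IR-7W 1 and IR-7W 6 held the 3 highest levels of the 13 arrays.

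Tnni2, the inhibitory troponin I of fast muscle, was at 1.04, -0.11 and 0.27 in normal tissue and at 2.35, -0.91, 2.42 and -0.21 in IR-3W. Within IR-7W the level went from -0.64 over a median of -0.33 to 1.51 on array 6, with 1.41 on array 1. IR-3W 3 was therefore as high as IR-3W 1 for Tnni2.

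Tnnt3, the tropomyosin-binding troponin T of fast muscle, was at -0.04, -0.80 and -0.01 in normal tissue and at -0.34, -1.76, 0.04 and 0.15 in IR-3W. The 6 IR-7W arrays ranged from -4.79 over a median of -3.47 to -0.24 on array 6, with -1.32 on array 1. All 4 IR-3W arrays lay above IR-7W 2, 3, 4 and 5 for this gene, whereas IR-7W 1 and 6 lay within the IR-3W range.

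Ckm, the creatine kinase that recharges ATP in muscle, was at -1.37 on normal 1 and not well above background on the other normal arrays, at -4.00 and -6.28. In IR-3W it was high on arrays 1 and 3, at -0.72 and -0.71, and not well above background on arrays 2 and 4, at -6.98 and -6.75. Levels in IR-7W went from -5.68 over a median of -3.36 to 0.23 on array 6, with -1.54 on array 1, and was well above background on all 6. Among the carcinoma arrays, Ckm thus shared its high levels on IR-3W 1, IR-7W 1 and IR-7W 6 with the sarcomere genes and had a further one on IR-3W 3. Normal 1 lay above IR-7W 1 for this gene.

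Some of the muscle genes that were high on IR-3W 1 were high on IR-3W 3 too, a pattern picked after the values were seen. Tnni2, Tnnt3 and Ckm were as high on IR-3W 3 as on IR-3W 1. Ampd1, the AMP deaminase of muscle, was at 0.65 on IR-3W 3, its highest level on the 13 arrays, and at 0.13 on IR-3W 1. Tnnt3 was as high on IR-3W 4, at 0.15. Myh1, Myh2, Myh4 and Acta1 were not well above background on IR-3W 3. Myh4 was undetected on IR-3W 2 and 4 as well, and Acta1 on IR-3W 4. Myh1 was detected on IR-3W 2 and 4 at -4.84 and -4.20, below the detection limit of -4.17 on IR-3W 3. Most markers of fat were high on IR-3W 3: the mean of the 9 tested fat cell genes was 1.06 there and -1.62 to -1.48 on the other IR-3W arrays. Cidea, a lipid droplet protein abundant in brown fat, was at 7.09 against -2.52 to 0.23. Fabp3, a fatty acid carrier of heart, muscle and brown fat, was at 6.59 there and at -1.80 to 1.72 on the other IR-3W arrays. Adipoq, the adipokine adiponectin of fat cells, showed no such rise. It was at -6.36 and not well above background on IR-3W 3, against -5.05 to -3.81 on the other IR-3W arrays. Since the detection limit on IR-3W 3 was -4.17, whether Adipoq was lower there than on the others cannot be told. The thermogenic uncoupling protein Ucp1 was not well above background on IR-3W 3, nor on IR-3W 1 and 4. Dio2, another listed marker of brown fat, went the other way from Cidea. It was not well above background on IR-3W 3 and was detected on the other IR-3W arrays at -4.07 to -3.07, above the limit of IR-3W 3. The part of fat in these levels was not tested.

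The order of arrays was shared by most members. In IR-7W, arrays 1 and 6 were the highest pair for 9 of the 10 members, Acta1 being the exception, an order that 4.54% of 24876 genes with a value on every array had. IR-7W 6 alone was highest for 8 members, against 13.6% of all genes, and IR-3W 1 was the highest IR-3W array for 7 members, against 28.2% of all genes. Both orders held for 6 members (Actn3, Myh1, Myh2, Myh4, Tnnc2 and Mylpf), against 0.539% of all genes, although IR-7W 1 was not well above background for Myh4. These orders were picked after the values were seen and carry no test.

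Kendall's coefficient of concordance W is 1 when every gene gives the arrays the same order, and for independent orders it is expected at 1 divided by the number of genes, which is 0.1 for the 10 members and larger for shorter lists. For the 10 members it was 0.61 over the 10 carcinoma arrays, 0.73 within IR-7W, 0.42 within IR-3W and 0.52 within normal tissue. The fibroblast list (among others Col1a1, Dcn and Fn1) reached 0.85 over the carcinomas, where the 2 irradiation groups differ, and 0.53 within IR-7W. The smooth muscle and myoepithelial list reached 0.38 over the carcinomas and 0.52 within IR-7W. The muscle genes thus had the highest W of the lists with over 1 gene within IR-7W, but not over all carcinomas, nor within IR-3W, where the smooth muscle, epithelial, blood vessel, myeloid and lymphocyte lists lay between 0.50 and 0.85. The 4 members that were well above background on all 13 arrays (Actn3, Tnnt3, Tnni2 and Mylpf) all had IR-7W 6 and IR-7W 1 as the highest IR-7W arrays, so that order does not depend on undetected values.

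Slides did not separate the high arrays from the low ones. IR-3W 1 and IR-7W 1 shared a slide with IR-3W 2 and IR-7W 5, and IR-7W 6 shared a slide with IR-7W 2, 3 and 4. The average level of the 10 genes on the first of these slides was 0.31, -0.63, -4.27 and -4.07 in the order just given, and on the second 0.73 against -4.74 to -3.52. High and low arrays thus lay side by side on both slides. In signal, the 75th percentile was 572 on IR-3W 1, 1242 on IR-7W 1 and 943 on IR-7W 6, within the range of the other carcinoma arrays except that IR-7W 1 was the brightest.

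Each member was matched against the mean of the other 9 after group means were removed, over the 13 arrays. Pearson's r ran from 0.70 for Acta1 to 0.97 for Tnnc2 and 0.98 for Mylpf, with 0.76 for Myh2, 0.77 for Tnnt3, 0.78 for Ckm, 0.80 for Tnni2, 0.86 for Myh4, 0.87 for Myh1 and 0.88 for Actn3. These values describe the same 13 arrays, with 3 high carcinomas among them, and carry no p. Mylpf, Actn3, Tnnt3 and Tnni2 have measured levels throughout, whereas Myh4 was measured on 3 arrays and its other values share each array's detection limit.

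Of 24866 other genes, 17 had an r above 0.9 with the mean of the members after group means were removed, over 13 arrays. Of these, 11 had a symbol, and 7 of the 11 stood in the muscle lists. The 10 highest with a symbol were Myl1 (0.98), a fast myosin light chain; Pgam2 (0.96), the muscle phosphoglycerate mutase; Xirp2 (0.96), an actin-binding muscle protein; Myom2 (0.96), of the M-line; Sypl2 (0.95), of the triad membranes; Trim54 (0.95), a muscle ring finger protein; Nrap (0.94), a nebulin-related anchor; Lmod2 (0.94), a nucleator of actin filaments; Fgf3 (0.93), a growth factor; and Klhl31 (0.93), a muscle kelch protein. Of these, Myl1, Xirp2, Myom2, Sypl2, Trim54 and Fgf3 were well above background on 3 arrays each. They passed the filter on dim probes through those arrays alone, and their remaining values share the detection limit of the arrays.

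Fgf3, known in mice as a gene switched on by proviral insertion in mammary tumours, was the one growth factor among them. It stood at 1.77 on IR-3W 1, 1.46 on IR-7W 1 and 1.24 on IR-7W 6. On the other 10 arrays it lay between -8.0 and -4.81 and was not well above background. The arrays with Fgf3 signal were the same 3 on which the sarcomere genes were high. Fgf3 was picked for its likeness to the members and passed the filter through these 3 arrays alone, so that match is no separate finding. The lowest of the 3 stood 4.39 units above the highest detection limit of the other arrays.

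**Figure D3:**
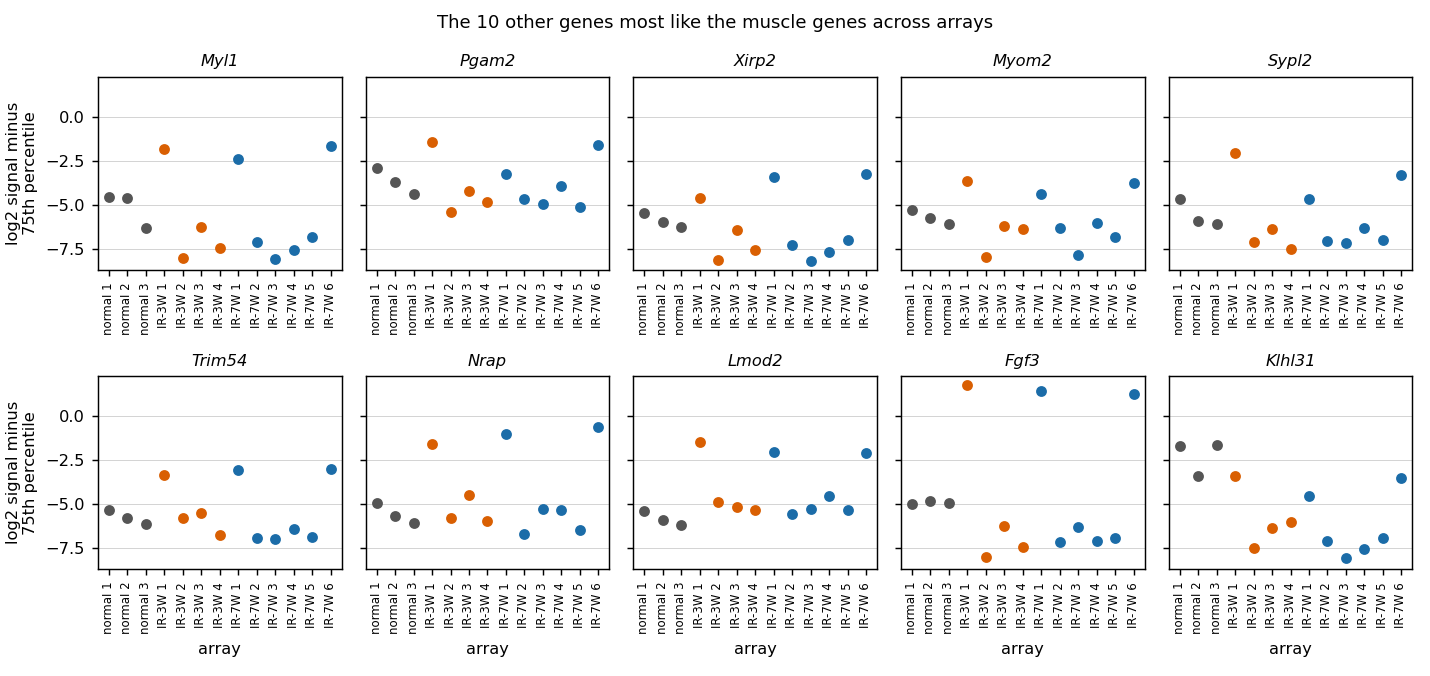
Level of the 10 genes outside the members whose pattern over the 13 arrays was most like theirs, as a log2 level relative to the array's 75th percentile; grey is normal, orange IR-3W and blue IR-7W. IR-3W 1, IR-7W 1 and IR-7W 6 are the highest carcinoma arrays in all 10 panels, and in Fgf3 they stand at 1.24 to 1.77 against -4.81 or lower, not well above background, elsewhere.

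The wider muscle lists behaved unequally. Among other sarcomere proteins, 16 of the 17 genes with a probe were well above background on IR-3W 1, 15 on IR-7W 1 and 14 on IR-7W 6, against 4 to 8 on the other arrays. Of these 17, 14 passed the filter on dim probes, 4 of them (Myl1, Myom2, Xirp2 and Csrp3) through those 3 arrays alone, so their order is fixed by the filter. IR-7W 1 and 6 were the highest pair for 11 of the 14, IR-3W 1 was the highest IR-3W array for 9, and both held for 8. Each of these counts includes those 4 genes, for which the order carries no information. Csrp3, a Z-disc LIM protein among those 4, was at -1.03, -1.11 and -2.32 on the 3 arrays and at -4.96 or lower, not well above background, elsewhere. Among 13 calcium handling and excitation genes, such as the calcium pump Atp2a1 and the pump regulator Sln, both orders held for 6. Among 12 energy genes with a value on every array, both held for 1, Pgam2. The mitochondrial creatine kinase Ckmt2 and the glycogen phosphorylase Pygm were not among them, and neither had its highest IR-3W level on array 1.

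Some slow fibre and immature muscle genes split the 3 arrays. Myh7, the slow myosin heavy chain, was at -0.12 on IR-3W 1 and -1.19 on IR-7W 6 and was not well above background on IR-7W 1, at -7.96. It was also detected on IR-3W 2 and 4, at -3.42 and -2.82, and on no normal array. Tnnt1, the slow troponin T, was well above background on the 3 arrays alone, at -2.67, -5.53 and -4.43 on IR-3W 1, IR-7W 1 and IR-7W 6, and it passed the filter through them. The last 2 levels lie below what could be detected on a normal array. Tnni1, the slow troponin I, did not split the 3 arrays: it was well above background on all 3, at -1.91, -2.36 and -3.31 in the same order. It was also detected on IR-3W 2, IR-3W 4 and IR-7W 3, at -3.91, -2.37 and -4.67, and on no normal array. Myh3, the embryonic myosin heavy chain, was at 1.74 on IR-3W 1 and -1.60 on IR-7W 6, and the other 11 arrays lay between -5.45 and -2.95. Myog, the myogenin gene that drives differentiation of muscle precursors, was at -0.35 on IR-3W 1 and -2.53 on IR-7W 1 and was not well above background on IR-7W 6. Myod1, a determination factor of the muscle lineage, was detected on IR-3W 1 and IR-7W 1 alone, at -3.15 and -4.32, and did not pass the filter on dim probes. IR-3W 1 therefore combined fast, slow and embryonic sarcomere genes with myogenin, while IR-7W 6 had Myh4 and Myh7 without detected Myog, and IR-7W 1 had Myog with neither Myh4 nor Myh7 detected. Myog was also dim but detected on IR-3W 4, IR-7W 3 and IR-7W 5, at -4.39, -4.82 and -4.65.

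Cardiac, smooth muscle and other cell type genes mostly lacked the order. Both orders held for 0 of 7 cardiac genes, 0 of 12 smooth muscle and myoepithelial genes, 0 of 9 fat cell genes, 0 of 10 epithelial genes and 0 of 10 fibroblast genes, and for 1 of 7 myeloid, 1 of 7 nerve sheath and 1 of 4 slow muscle genes. The mean of the smooth muscle list was 0.41 on IR-3W 1, 1.09 on IR-7W 1 and 1.32 on IR-7W 6, inside the range of -0.47 to 1.65 of the other carcinoma arrays. The mean of the epithelial list was 4.10, 4.10 and 4.12 on those arrays, inside the range of 3.09 to 4.40 of the others. Immune and nerve lists did move with some of the 3 arrays. The mean of the 8 myeloid genes was 4.51 on IR-3W 1 against 2.64 to 3.69 on the other IR-3W arrays, and 3.40 on IR-7W 6 against 2.15 to 3.14 on the other IR-7W arrays, IR-7W 1 lying within at 2.76. The mean of the 4 tested lymphocyte genes was -1.0 on IR-3W 1 and -3.62 to -1.75 on the other carcinomas. The mean of the 7 nerve sheath genes was -1.47 on IR-3W 1 and -1.44 on IR-7W 6, against -2.62 to -1.52 on the other carcinomas. The part of these cells in the muscle levels was not tested.

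**Figure D4:**
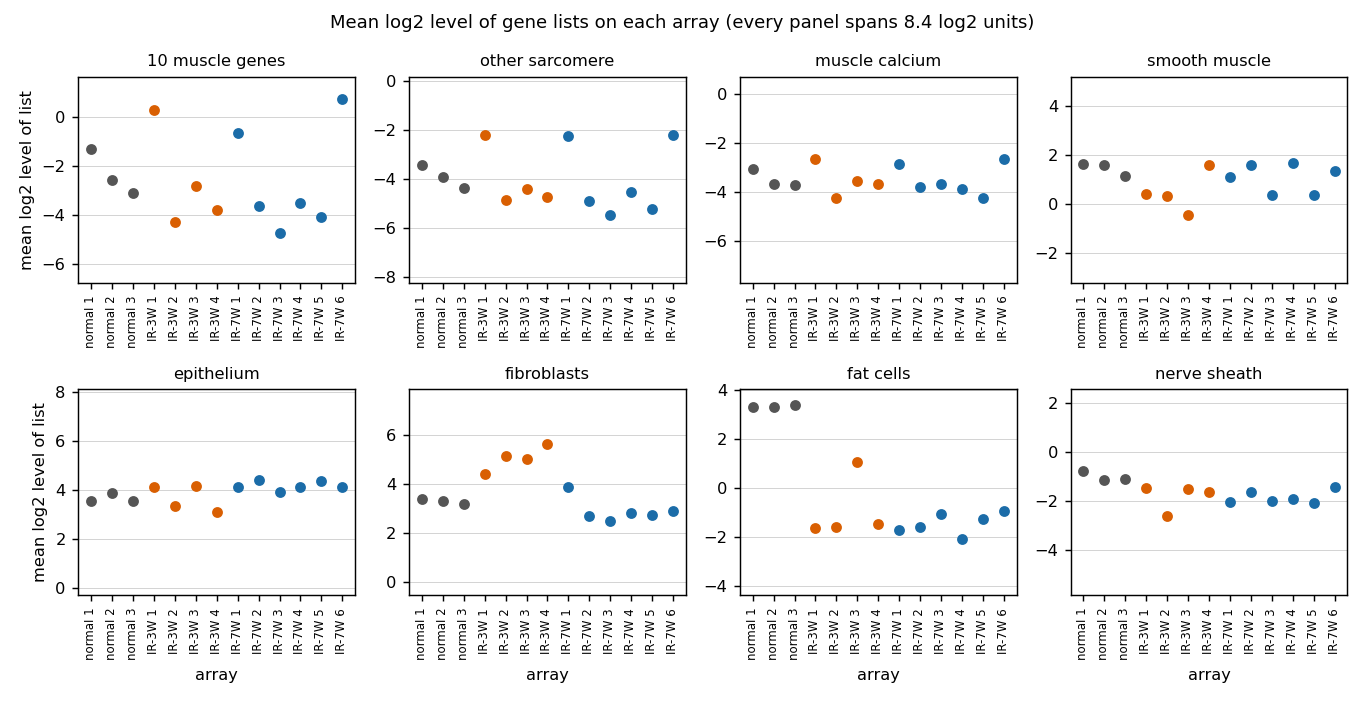
Mean level of 8 gene lists on each of the 13 arrays (log2 level relative to the array's 75th percentile, averaged over the tested genes of a list); grey is normal, orange IR-3W and blue IR-7W, and every panel spans the same number of units. The muscle genes, the other sarcomere genes and the calcium genes are highest on IR-3W 1, IR-7W 1 and IR-7W 6, and the fat list is at 3.30 to 3.38 in normal tissue and at 1.06 or lower in the carcinomas.

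The members were among the most variable genes within groups. The residual standard deviation within groups had a median of 2.21 over the 10 genes, against 0.55 over all genes. The lowest was 1.20 for Tnni2, the 92.0th percentile of all genes, and the highest was 3.31 for Myh4, the 99.9th percentile. This spread widened the error of each group difference below.

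Group differences were tested with limma over all 13 arrays, with Benjamini-Hochberg adjustment over all genes. Between IR-3W carcinoma and normal tissue, 0 of the 10 members passed an adjusted p of 0.05, where 14.6% of all genes passed (9.25% higher and 5.35% lower), and 1 had an unadjusted p under 0.05. That gene was Acta1, at -4.42 ± 2.53 (SD, n = 4) in IR-3W and -0.30 ± 0.64 (SD, n = 3) in normal tissue, a difference of -4.12 ± 1.51 (SE) with an adjusted p of 0.0875. Without IR-3W 1 the difference was -5.33 with an adjusted p of 0.0244, so the call turned on that array, and array weights gave -5.38 with an adjusted p of 0.00838. For Myh1, undetected on every normal array, no fold is given, because its IR-3W mean of -3.72 lay near the normal detection limits. The other 8 members had differences from -0.78 (Myh4) to 0.51 (Tnni2), whose 95% intervals all included 0, and for Myh4, Myh2 and Ckm these rest in part on undetected values in both groups. The median difference over the 10 members was -0.18, against -0.01 over all genes.

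Between IR-7W carcinoma and normal tissue, 1 of the 10 members passed, Tnnt3, where 20.8% of all genes passed (12% higher and 8.85% lower). Tnnt3 was -2.87 ± 1.73 (SD, n = 6) in IR-7W and -0.29 ± 0.45 (SD, n = 3) in normal tissue, a difference of -2.59 ± 0.85 (SE) with an adjusted p of 0.0466. The ranges of the groups overlapped, through IR-7W 6 at -0.24. The call was lost when normal 1, 2 or 3 was left out, with adjusted p of 0.140, 0.0905 and 0.129, and when IR-7W 2, 3, 4 or 5 was left out, with adjusted p of 0.0785, 0.0775, 0.0771 and 0.0821. Without IR-7W 6 the difference was -3.11 with an adjusted p of 0.00807. Myh1, undetected on every normal array and on 4 of the 6 IR-7W arrays, again has no fold. The other 8 members had differences from -1.44 (Acta1) to 1.02 (Actn3), all with intervals that included 0. For Myh4 and Myh2 these rest in part on undetected values in both groups. The median over the 10 was -0.52, against -0.02 over all genes.

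Markers of other cell types differed between these tissues as well. Of 9 tested fat cell genes, 8 were lower in IR-3W and 9 lower in IR-7W than in normal tissue, and their mean level was 3.30 to 3.38 on the normal arrays, -1.62 to 1.06 in IR-3W and -2.07 to -0.92 in IR-7W. Of 7 blood vessel genes, 2 were lower in IR-3W and 5 in IR-7W. Of 10 fibroblast genes, 5 were higher in IR-3W and 3 lower in IR-7W than in normal tissue, and 8 were higher in IR-3W than in IR-7W. Of 13 smooth muscle and myoepithelial genes, 5 were lower in IR-3W and 2 in IR-7W, and of 8 myeloid genes 1 and 4 were lower. Of 7 nerve sheath genes, 0 and 2 were lower, and of 10 epithelial genes 1 was higher in each carcinoma group. All of these lists are read relative to the same 75th percentile as the muscle genes, and their part in the level of Tnnt3 was not tested.

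Between the carcinoma groups, 0 of the 10 members passed, where 0.738% of all genes passed (0.588% higher and 0.15% lower), and 1 had an unadjusted p under 0.05. That gene was Tnnt3 again, with a difference of 2.39 ± 0.77 (SE) for IR-3W minus IR-7W and an adjusted p of 0.205. The 2 contrasts in which Tnnt3 stood out share the IR-7W arrays. For the remaining members the differences ran from -2.68 (Acta1) to 0.76 (Myh2) and every 95% interval included 0. The intervals were wide, from -3.94 to 4.28 for Myh4 and from -2.37 to 2.36 for Mylpf, so differences of several units in either direction were not detectable with these arrays. Myh4 was well above background on only 1 array of each carcinoma group, so its interval rests mostly on undetected values. On the slide that held both carcinoma groups, 0 of the 10 passed, and 0 of all 25344 genes passed there in limma (699 of all genes and 0 members at an unadjusted p under 0.05), so that count says nothing particular of the members. Their differences there ran from -1.17 (Ckm) to 2.43 (Myh4). The groups overlapped for all 10 members in all 3 contrasts, where they did not overlap for 24.7% of genes in IR-3W against normal, 28.8% in IR-7W against normal and 2.87% between the carcinomas.

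**Figure D5:**
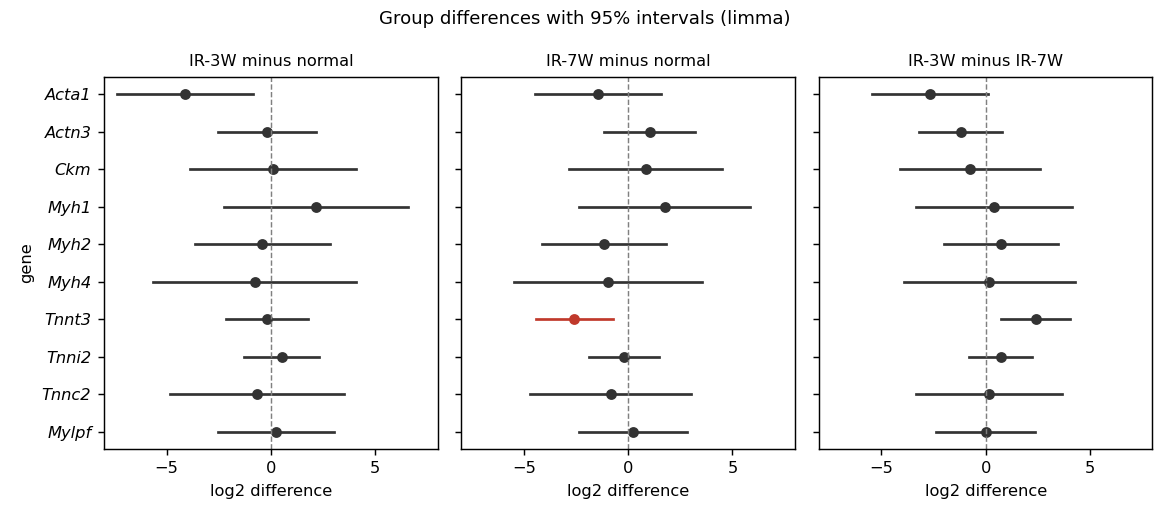
Difference in log2 level between groups for each of the 10 members, with its 95% interval from limma, in 3 panels (IR-3W minus normal, IR-7W minus normal, IR-3W minus IR-7W). Tnnt3 in IR-7W minus normal, in red at -2.59, is the one difference with an adjusted p under 0.05, and Myh1 against normal is drawn from undetected normal values.

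The other muscle lists were tested against normal tissue in the same fit. Among 14 other sarcomere genes, 0 passed in IR-3W (3 at an unadjusted p under 0.05) and 1 in IR-7W, Pdlim3, a Z-disc protein, which fell by 2.30 on the log2 scale (adjusted p 0.0256). That call was lost without normal 2 or normal 3, with adjusted p of 0.0980 and 0.0880, and under the replicate block, with an adjusted p of 0.143. In each carcinoma group, 0 of the 4 slow sarcomere genes and 0 of the 5 tested myogenic regulators passed in limma, with 0 and 1 at an unadjusted p under 0.05.

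Of 7 cardiac genes, 1 was lower in each carcinoma group, Myl4, the light chain of atrial and embryonic muscle myosin. It was 0.47 ± 0.72 (SD, n = 3) in normal tissue, -1.53 ± 0.52 (SD, n = 4) in IR-3W and -2.14 ± 0.27 (SD, n = 6) in IR-7W, and neither carcinoma group overlapped normal tissue. It fell by 1.99 in IR-3W (adjusted p 0.0028) and by 2.61 in IR-7W (adjusted p 0.000186) on the log2 scale, and both calls held under the alternatives run, leaving out each array included. Unlike the members, Myl4 was low on IR-7W 1 and 6, at -2.55 and -2.09.

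Among 13 calcium and excitation genes, Chrna1, a subunit of the muscle acetylcholine receptor, was well above background on the 3 normal arrays and on 1 carcinoma array. It was -2.03 ± 0.33 (SD, n = 3) in normal tissue and -6.45 ± 1.61 (SD, n = 4) in IR-3W, where it was not well above background on any array. It was thus at least 8.92-fold lower in IR-3W, a bound taken at the detection limit (adjusted p 0.00205), and it passed as lower in IR-7W too (adjusted p 0.00041), where 1 of 6 arrays, IR-7W 1, measured it, at -5.31, so no size is given. With normexp background correction the IR-3W call was lost, at an adjusted p of 0.134. Casq2, the calsequestrin of heart and slow muscle, was 1.93 higher in IR-3W (adjusted p 0.0056), although only normal 3 measured it among the normal arrays. Its call was lost with normexp, at an adjusted p of 0.146, and under the replicate block, at 0.0553.

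Among 13 energy genes, 2 were higher and 1 lower in each carcinoma group. Pfkm, the muscle phosphofructokinase that other tissues also express, was higher by 1.37 in IR-3W (adjusted p 0.00923, over 3 of its 4 arrays, since 1 spot was an outlier) and by 1.67 in IR-7W (adjusted p 0.000898). Both Pfkm calls were lost under the replicate block, at adjusted p of 0.155 and 0.0606, and the IR-3W one also in a fit of those groups alone, at 0.0888. Ucp3, an uncoupling protein of muscle and brown fat, fell by 5.53 in IR-3W (adjusted p 0.00961) and by 4.79 in IR-7W (adjusted p 0.0105) on the log2 scale. Fbp2, the muscle fructose bisphosphatase, was higher by 3.22 in IR-7W (adjusted p 0.00171). Cox6a2, a muscle form of a cytochrome oxidase subunit, was higher by 1.44 in IR-3W (adjusted p 0.0245), a call lost when normal 1, 2 or 3 was left out, with adjusted p of 0.0976, 0.0518 and 0.0594, with normexp at 0.323, in a fit of those groups alone at 0.0863 and under the replicate block at 0.0830.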

How the data were processed

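Total RNA of 3 normal and 10 carcinoma samples was labelled with Cy3 alone, 1 array per sample. The authors' deposited intensity values were green processed signals, background-subtracted by Feature Extraction 10.7.3.1, per the file headers. A deposited log2 table, whose making the sources used here do not state, equalled the log2 signal minus the 75th percentile minus the normal mean within 0.01 for 99.4 to 99.6% of values, after a constant of at most 0.0335 per array was removed. It has 29.4 to 52.2% blanks and medians of -0.20 to 0.05, and served as an alternative.

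Control and outlier spots were left out (1639 of 45018 spots were controls). The signal was put on a log2 scale, centred on the 75th percentile of its array and averaged over spots of a probe, and probes well above background on at least 3 arrays were kept, 29290 of 41012. Symbols came through RefSeq accessions (GRCr8 table, 16815 probes matched). The brightest probe stood for a gene. All 13 arrays were fitted with limma 3.58.1 in R 4.3.3 (two-sided, Benjamini-Hochberg over all genes, threshold 0.05), and the steps were tested on simulated data. No array coordinates are given, since the array's annotation is of another build than the table. An "at least" fold is the bright group's mean over the dim group's detection limit and covers neither spread nor error. Precision is limited by how many arrays there are.

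The members and lists were chosen with earlier results of these data known. The rule for naming takes all members, up to 4 genes of smallest p per list in IR-7W minus normal and the 10 genes most like the members. Genes it takes from lists of other tissues are mostly given as counts. Ampd1, Atp2a1, Casq2, Ckmt2, Col1a1, Csrp3, Fabp3, Fn1, Krt18, Myod1, Myog, Pygm and Sln are outside it and were named after their values were seen. Pairwise correlations with p between members, planned at first, are not given, because the arrays fell into separate ranges. The normexp alternative used median signals with an offset of 50. Other alternatives were quantile normalization, the percentile over detected probes, other filters, probe means, array weights, fits of 2 groups, slide and replicate blocks, and leaving out each array.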

Additional observations from a re-analysis of the deposited data

Results flagged for a closer look

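Myh4 on IR-7W 6 was a sample far from the others of its group. Its level was 1.31, and the nearest IR-7W array stood at -5.91, a gap of 0.797 of the group's whole range, past Dixon's critical value for 6 samples. The gap was looked for in 20 sets of arrays, the 10 members in 2 carcinoma groups, and about 1 in 20 such sets passes by chance. IR-7W 6 was the only IR-7W array on which Myh4 was well above background, and the other members were well above background there too.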

How the results depend on the processing

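The count of members passing the test in IR-3W minus normal was 0 and became 1 (Acta1) with array weights. In IR-7W minus normal it was 1 (Tnnt3) and became 0 with the 75th percentile over detected probes (adjusted p 0.0658) and in a fit of the 2 groups alone (0.0602), and 2 with the deposited log2 values, where Tnnc2 joined (-2.86, adjusted p 0.0249) over 8 members with values. In IR-3W minus IR-7W it was 0 and became 1 with normexp (Tnnt3, 1.64, adjusted p 0.022), which moved the median of all genes to 0.39 there and to -0.55 in IR-7W minus normal. Leaving out 1 array gave 0 to 1 members in IR-3W minus normal, 0 to 1 in IR-7W minus normal and 0 between the carcinoma groups. With the filter for all 13 arrays, 4 members could be tested. Over all genes, the calls against normal ran from 1180 (normexp) to 11060 (no filter) in IR-3W, where the main count was 3699, and from 2292 (replicate block) to 13773 (no filter) in IR-7W, where it was 5274. Between carcinomas they ran from 0 (slide or replicate block) to 7465 (normexp), where the main count was 187. The share of calls that were higher was 63.3, 57.5 and 79.7% in the 3 contrasts, 66.0, 16.2 and 91.2% with normexp, and 73.4, 72.0 and 74.5% with the percentile over detected probes. It was 25.0, 24.9 and 86.9% when dim probes were kept, 47.6, 43.8 and 79.2% when only probes bright throughout were kept, and 50.6, 49.9 and 63.9% under array weighting, so most calls against normal were lower under both of those filters. In IR-3W minus normal it was 74.3% in a fit of the 2 groups alone and 74.1% with the replicate block.

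Differences of members that missed the threshold changed sign in places. In IR-3W minus normal, array weights gave -1.94 for Ckm, 0.20 for Myh2, 0.39 for Tnnt3, -0.0033 for Tnni2 and -0.79 for Mylpf, and the deposited values gave -0.034 for Ckm. In IR-7W minus normal, normexp gave -0.48 for Ckm, -0.016 for Myh1 and 0.15 for Tnni2, and array weights gave 0.072 for Myh4 and 0.22 for Tnni2. In IR-3W minus IR-7W, normexp gave 0.59 for Ckm and 0.17 for Mylpf, and array weights gave -0.24 for Myh1, -1.47 for Myh4, -0.22 for Tnni2 and -1.29 for Tnnc2. Mylpf, at -0.0025 there, became 0.020 with slide as a random block, 0.51 with slide as a fixed block and within the shared slide, and 0.0023 with the deposited values. The cause of these changes was not tested.

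Leaving out 1 array spanned zero for several members. In IR-3W minus normal the range was -1.01 to 0.51 for Actn3, -1.10 to 1.35 for Ckm, -1.07 to 0.38 for Myh2, -2.60 to 0.55 for Myh4, -0.45 to 0.23 for Tnnt3, -2.07 to 0.31 for Tnnc2 and -0.82 to 0.79 for Mylpf. In IR-7W minus normal it was -0.36 to 2.10 for Ckm, -2.32 to 0.38 for Myh4, -0.47 to 0.11 for Tnni2 and -0.36 to 0.60 for Mylpf. In IR-3W minus IR-7W it was -1.77 to 0.32 for Ckm, -0.88 to 1.38 for Myh1, -1.64 to 1.54 for Myh4, -1.23 to 1.15 for Tnnc2 and -1.07 to 0.61 for Mylpf. Without IR-3W 1, Myh1, Myh4, Tnnc2 and Mylpf were lower in IR-3W than in IR-7W. W over the carcinomas stayed between 0.52 (without IR-7W 6) and 0.67 (without IR-3W 4), with 0.64 under normexp and 0.57 under quantile normalization.

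Samples with the same replicate number did not deviate together (correlations of -0.21 to 0.08). The values thus show no pairing by number, though they cannot exclude one. With the replicate number as a block, 0, 1 and 0 members passed in the 3 contrasts, Actn3 in IR-3W minus normal was 0.21 and Mylpf in IR-3W minus IR-7W was 0.51.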
